A study of Mus musculus with 8 samples.

Results

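Mouse embryos that carried an antibody against COPS3, with no injected Trim21 mRNA, were compared with embryos that were left unmanipulated. The comparison was defined by the sample labels, not by measured values. It rests on 4 of the 8 arrays of the study, 2 for each group, and on 30701 genes measured on every array. The antibody-alone pools are labelled as holding anti-COPS3 antibody, and the labels add that 2-cell formation was stunted in this group and that many of its zygotes had not divided. Non-manipulated embryos stayed in the incubator and were not injected, and their 2-cell formation is labelled normal. Each array held RNA of a pool of 100 embryos at the late 2-cell stage, from B6C3F1 x CD1 matings after hormone stimulation, fertilised in vivo. Culture lasted 28 h per the protocol, while the age label gives 24 h in vitro. The other 4 arrays, 2 with Trim21 mRNA plus antibody and 2 with Trim21 mRNA alone, entered the fit to estimate the spread and serve here for single side values. No allele differs between groups.

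COPS3 belongs to the COP9 signalosome, a complex whose catalytic subunit, encoded by Cops5, strips the ubiquitin-like protein NEDD8 from cullins and so controls cullin-RING ubiquitin ligases. The antibody was part of a Trim-Away experiment, in which injected TRIM21, a ubiquitin ligase with affinity for antibodies, carries an antibody and its bound protein to the proteasome. Antibody without added TRIM21 is the arm that lacks the ligase from the injected mRNA. In the mouse the 2-cell embryo makes the main switch from RNA stored in the oocyte to RNA of its own genome: maternal RNA is degraded, a short burst of 2-cell genes such as the Zscan4 family is transcribed, and genes for ribosomes, translation and cell division follow.

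The design sets limits on the comparison. The groups were treated on different days of 1 week, so day and group cannot be told apart. No group received a control antibody. The injection is described for both groups given Trim21 mRNA but not separately for antibody alone, and whether undivided zygotes were among the pooled embryos is not given in the sources used here. In pooled RNA, fewer cells of a stage and less RNA per cell cannot be told apart. Nothing says that the pools of a group came from separate matings, so every p below measures the spread between pools of a single day. An exact permutation test of 2 pools against 2 cannot give a two-sided p under 0.33, so single genes were tested only in limma's fit across all genes. Levels are log2 array values, changes are the difference of mean log2 level (antibody alone minus non-manipulated) ± the standard error of the fit with n = 2 pools per group, and a gene was called at a Benjamini-Hochberg adjusted p under 0.05. Precision is limited by the number of arrays. The fit uses 1 spread per gene for all groups, while the antibody pools differed from each other more than those of any other group. The ± and adjusted p given below can therefore understate the spread of the antibody pools.

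The antibody pools were unlike each other to a degree that no other group showed. They differed by over 2-fold at 4615 of 30701 genes (15.0%), against 809 genes between the pools with Trim21 mRNA plus antibody, 97 with Trim21 mRNA and 49 in non-manipulated embryos. Replicate 1 was the higher pool at 2123 of these genes (6.92% of all) and replicate 2 at 2492 (8.12%). After quantile normalization the count was 4307. The median absolute difference between pools was 0.42 for antibody alone and 0.10 for non-manipulated embryos. Both antibody pools are therefore given apart throughout, replicate 1 before replicate 2, and so are both non-manipulated pools.

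**Figure D1:**
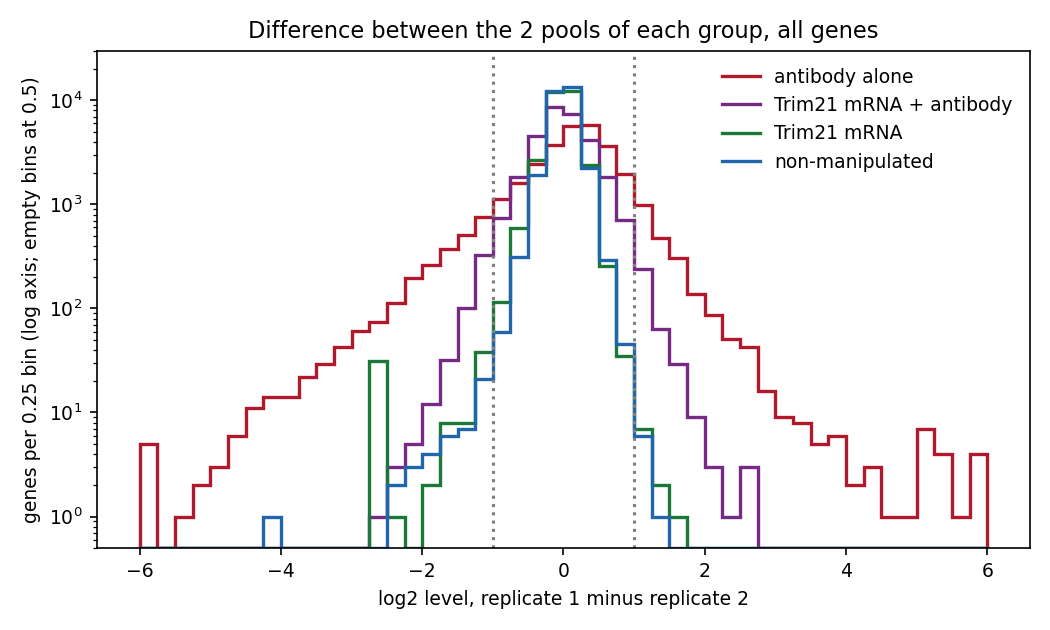
Difference in log2 level between replicate 1 and replicate 2 of each group, counted over 30701 genes in bins of 0.25 (log axis; differences beyond 6 are counted in the outermost bin). The distribution for antibody alone is the widest, with 4615 genes outside the dotted lines at a 2-fold difference, against 49 in non-manipulated embryos.

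Array-wide values moved with the groups as well. The median log2 level over transcript clusters was 5.24 and 4.86 on the antibody arrays, against 4.75 and 4.77 on the non-manipulated arrays, and the SD over clusters was 2.45 and 2.60 on antibody arrays, against 2.71 and 2.71 on non-manipulated arrays. On the array of antibody replicate 1, 136 clusters shared the highest value of 19.2, though only 2 of them were genes used here. The change depended on level: at a mean log2 level of 4 to 6 the median change was 0.40 in antibody replicate 1 and 0.11 in replicate 2, and at 12 to 14 it was −0.48 and −0.26. Over all genes the median change was 0.18. Quantile normalization removes such differences in distribution, and its values stand beside the deposited scale where they matter. Their part in the results below was not tested.

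**Figure D2:**
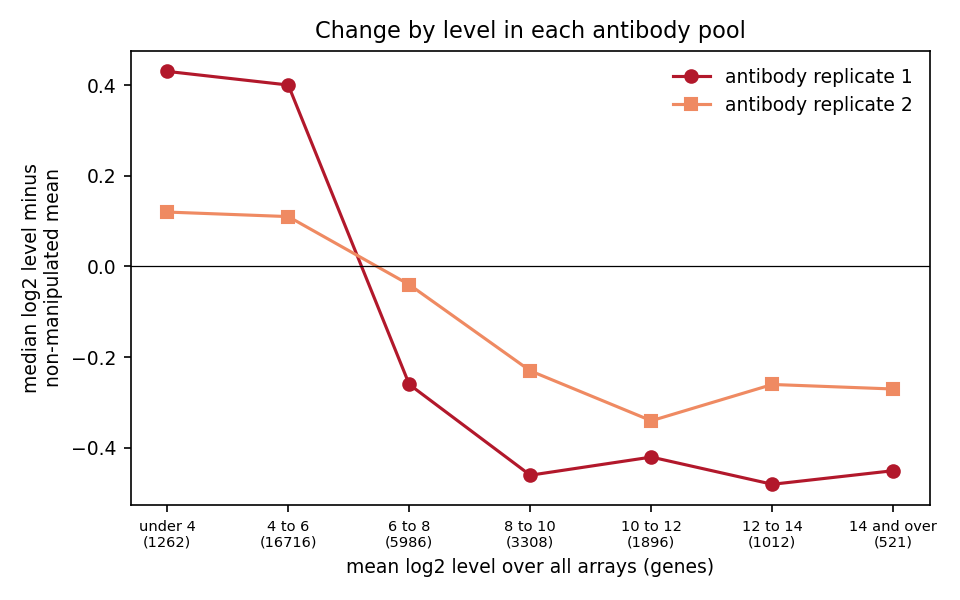
Median change of log2 level from the non-manipulated mean in each antibody pool, for genes binned by mean log2 level over all 8 arrays (number of genes in brackets). Low-level genes lie above 0 and higher-level genes below 0 in both pools, and replicate 1 is further from 0 than replicate 2 in every bin.

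Of all genes, 3083 (10.0%) were called, 846 higher (2.76%) and 2237 lower (7.29%) in antibody pools than in non-manipulated pools. At least 2-fold changes were found for 534 of the higher and 1695 of the lower genes. Both antibody pools lay on the same side of both non-manipulated pools at every called gene. Without any call, 12157 genes (39.6%) had both antibody pools above both non-manipulated pools and 6601 (21.5%) had both below. Replicate 1 was further down at 1547 of the 2237 called lower genes and further up at 507 of the 846 called higher ones. Of the 4615 genes at which the antibody pools were over 2-fold apart, 324 were called. A gap between pools raises a gene's standard error in the fit, so such genes are harder to call. Scaling moved the split: 846 higher and 2237 lower genes became 1116 and 1365 after quantile normalization, 1305 and 1649 after cyclic loess, and 571 and 2533 after median centring. The same direction was called under all 3 of these scalings for 481 of the 846 higher and 1295 of the 2237 lower genes. The size of the count depends on the arrays that set the spread. It was 94 without non-manipulated replicate 1, 156 without non-manipulated replicate 2, 5324 without antibody replicate 1, 13791 without antibody replicate 2, and 1360 without replicate 1 or without replicate 2 of Trim21 mRNA alone. With only the 4 arrays of the comparison in the fit, limma called 0 genes, with 5814 at an unadjusted p under 0.05. With the spread estimated separately for each group 1177 genes were called. Leaving out an antibody pool takes the group with the most unequal pools out of the spread. Counts without an antibody pool, here and for the lists below, are therefore no check on the calls.

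**Figure D3:**
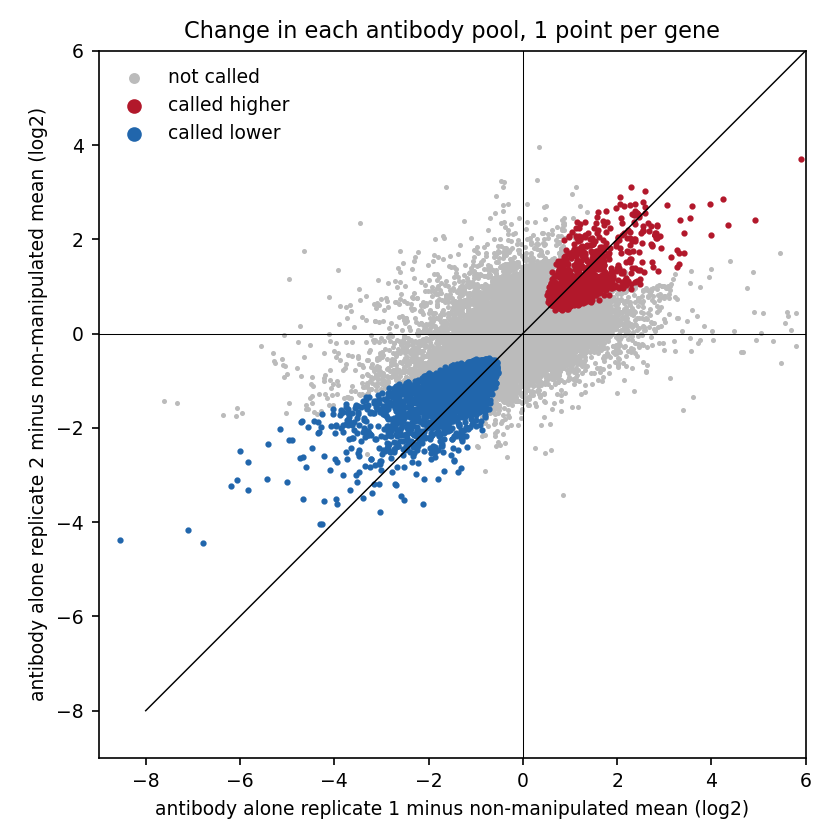
Change of log2 level from the non-manipulated mean in antibody replicate 1 (horizontal) and antibody replicate 2 (vertical), 1 point per gene, with called genes coloured and the diagonal marking equal change. Called lower genes reach further along the axis of replicate 1, and 83 genes lie over 2-fold below the non-manipulated mean in replicate 1 but over 2-fold above it in replicate 2, against 13 the other way.

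Of 10 genes for subunits of the COP9 complex, to which the antibody's target belongs, 1 was called lower and 0 higher. This is near the 7.29% called lower and 2.76% called higher of all genes. The median change was −0.66 in the fit, −0.47 in replicate 1 and −0.29 in replicate 2. After quantile normalization it was −0.31. Cops3 itself stood at 8.85 and 8.86 in the antibody pools, against 9.5 and 9.52 in the non-manipulated pools (−0.65 ± 0.16, adjusted p = 0.053). The groups did not overlap, but the change was −0.32 after quantile normalization with an adjusted p = 0.41. Trim-Away acts on protein, so these values do not show whether COPS3 was lost. The called subunit was Cops6, which pairs with the catalytic subunit, at 11.59 and 11.44 in antibody pools, against 12.41 and 12.35 in non-manipulated embryos (−0.86 ± 0.16, adjusted p = 0.020; −0.51 with adjusted p = 0.12 after quantile normalization). Cops5, the catalytic subunit, differed between antibody pools rather than between groups: it was at 7.59 in replicate 1 and 10.04 in replicate 2, against 10.20 and 10.01 in non-manipulated embryos (adjusted p = 0.25). Cops2 differed the other way, at 11.47 and 9.74 with antibody, against 9.83 and 9.69 in non-manipulated pools (adjusted p = 0.29). Cops4 had a change of −0.66 ± 0.17 (adjusted p = 0.054) and Cops7a one of −1.13 ± 0.31 (adjusted p = 0.067). Gps1, Cops7b, Cops8 and Cops9 had changes between −0.74 and 0.68 with adjusted p between 0.25 and 0.97. Trim21 was at 6.76 and 6.37 in antibody pools, against 6.27 and 5.65 in non-manipulated embryos (0.60 ± 0.26, adjusted p = 0.19), whereas both pools injected with Trim21 mRNA alone held 9.77 and 10.14.

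Genes of cullin-RING ligases and neddylation, on which the signalosome acts, had 2 called higher and 3 called lower of 34, with a median change of −0.17 that was 0.08 after quantile normalization, and 0 called without non-manipulated replicate 1 or 2. Of all genes 2.76% were called higher and 7.29% lower, so 2 and 3 of 34 were not far from those shares. Nae1, a subunit of the NEDD8-activating enzyme, rose to 9.23 and 9.25 in antibody pools, against 8.33 and 8.36 in non-manipulated pools (0.90 ± 0.18, adjusted p = 0.028; 0.063 after median centring). Skp2, the F-box protein that targets cell-cycle inhibitors, fell to 11.55 and 11.08 with antibody, against 12.43 and 12.46 in non-manipulated pools (−1.13 ± 0.19, adjusted p = 0.016), and the F-box protein gene Btrc fell to 8.11 and 8.19 in antibody pools, against 9.36 and 9.42 in non-manipulated embryos (−1.24 ± 0.21, adjusted p = 0.016). Dcun1d2, a cofactor of cullin neddylation, was called lower too (−0.82 ± 0.16, adjusted p = 0.024). After quantile normalization Skp2 and Dcun1d2 no longer passed (adjusted p = 0.097 and 0.11). Of genes of the 26S proteasome, 12 of 31 were called lower and 0 higher, with a median change of −0.99 (−0.67 after quantile normalization). Without non-manipulated replicate 1 or 2, 0 of the 31 were called, at medians of −1.03 and −0.98. Psmd7, in the lid of the regulatory particle, fell to 12.23 and 12.74 with antibody, against 14.34 and 14.26 in non-manipulated pools (−1.82 ± 0.21, adjusted p = 0.0057). Psmd14, the lid's deubiquitinase, fell to 8.34 and 8.51 in antibody pools, against 9.66 and 9.73 in non-manipulated embryos (−1.27 ± 0.16, adjusted p = 0.0066). Psmd8 and Psmd11, other lid subunits, fell, with changes of −1.32 and −1.10 (adjusted p = 0.0068 and 0.0082).

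Genes that build ribosomes were among those called lower. Over the lists for RNA polymerase I, small-subunit assembly, large-subunit assembly and small nucleolar ribonucleoprotein (snoRNP) core proteins, 71 of 125 genes were called lower (56.8%) and 0 higher, beside 7.29% and 2.76% of all genes. Both antibody pools were below both non-manipulated pools at 108 of the 125 (21.5% of all genes). The called lower count was 88 without antibody replicate 1 and 101 without antibody replicate 2, where 5 were also called higher, but 8 without non-manipulated replicate 1 and 9 without non-manipulated replicate 2, while the median change, −1.18 in the full fit, was −1.14 and −1.22 in the last 2 fits. The first step, transcription of ribosomal RNA, had 10 of 12 genes called lower with a median change of −1.50 (−1.78 in replicate 1 and −1.25 in replicate 2). Polr1a, which encodes the largest RNA polymerase I subunit, stood at 6.52 and 7.07 in antibody pools, against 9.75 and 9.73 in non-manipulated pools (−2.94 ± 0.20, adjusted p = 0.0018). Its second-largest partner Polr1b was at 7.46 and 7.95 with antibody, against 10.04 and 10.20 in non-manipulated pools (−2.42 ± 0.21, adjusted p = 0.0029). Both antibody pools lay more than 2 log2 units below both non-manipulated pools for each of these subunits. Ubtf, which binds the ribosomal DNA promoter, was at 9.86 and 9.81 in antibody pools, against 11.42 and 11.34 in non-manipulated embryos (−1.54 ± 0.14, adjusted p = 0.0030). The nucleolar protein gene Mybbp1a was at 8.33 and 9.13 with antibody, against 12.15 and 12.14 in non-manipulated pools (−3.42 ± 0.27, adjusted p = 0.0021). The 2 genes not called, Taf1b and Ttf1, had replicate 1 above replicate 2: Taf1b was at 12.63 and 11.02 in antibody pools, against 11.96 and 11.98 in non-manipulated embryos. In the pools injected with Trim21 mRNA without antibody, Polr1a was at 9.87 and 9.79, close to its non-manipulated levels.

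The small-subunit processome, which folds and cleaves the ribosomal RNA precursor, had 26 of 49 genes called lower with 40S assembly factors included, with a median change of −1.28 (−0.95 after quantile normalization). Pwp2, a core component, fell to 6.41 and 6.68 with antibody, against 9.43 and 9.45 in non-manipulated pools (−2.90 ± 0.17, adjusted p = 0.0018). Pdcd11, the homologue of yeast Rrp5, fell to 6.82 and 7.24 in antibody pools, against 10.15 and 9.99 in non-manipulated embryos (−3.04 ± 0.19, adjusted p = 0.0018). Rcl1 and Aatf of the same machinery fell, with changes of −1.58 and −1.22 (adjusted p = 0.0066 and 0.0054). Large-subunit assembly had 28 of 51 genes called lower with a median of −1.11. Nop2, a ribosomal RNA methyltransferase, fell to 11.20 and 11.68 with antibody, against 14 and 14.05 in non-manipulated pools (−2.58 ± 0.19, adjusted p = 0.0019). Bop1, which works in a complex with Pes1 and Wdr12, fell to 11.33 and 11.10 in antibody pools, against 13.30 and 13.28 in non-manipulated embryos (−2.08 ± 0.15, adjusted p = 0.0019). The helicase gene Ddx54 showed one of the largest falls measured, with the pools unequal at 8.03 and 9.89 with antibody, against 13.02 and 13.06 in non-manipulated pools (−4.08 ± 0.53, adjusted p = 0.0074). Pelp1 and the helicase gene Ddx27 fell, with changes of −1.94 and −1.91 (adjusted p = 0.0020 and 0.0030). The snoRNP proteins, which guide modification of ribosomal RNA, had 7 of 13 called lower and were alike in both antibody pools, with 0 of 13 over 2-fold apart. Their methyltransferase gene Fbl fell to 13.68 and 13.65 in antibody pools, against 15.23 and 15.28 in non-manipulated embryos (−1.59 ± 0.17, adjusted p = 0.0051), and Nolc1, a nucleolar chaperone of these particles, to 12.77 and 12.30 with antibody, against 14.68 and 14.67 in non-manipulated pools (−2.14 ± 0.20, adjusted p = 0.0032). Nop58 (−1.08 ± 0.17) and Nufip1 (−1.47 ± 0.24) were called at an adjusted p = 0.014 each, and neither passed after quantile normalization (adjusted p = 0.12 and 0.085).

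The promoters of 3 of these genes are shown because a short ETS-family motif, CCGGAAG, was found in 36 of the 106 ribosome assembly genes with a promoter sequence (34.0%), 310 of 1405 called lower genes (22.1%), 36 of 545 called higher genes (6.61%) and 1771 of all 18265 (9.70%). Either strand was searched over the 250 bases before the annotated start, in RefSeq sequences of GRCm38.p6. Base composition differs between the sets, with a median of 16 CG dinucleotides for called lower genes, 8 for called higher genes and 9 for all, so the shares are descriptions and not evidence of binding. The 200 bases before the start are given 5′ to 3′ on the strand of the gene, with the motif in capitals: Pwp2 lies at chr10:78185150-78185349 on the minus strand, Pdcd11 at chr19:47090566-47090765 on the plus strand and Nop2 at chr6:125131683-125131882 on the plus strand.
Pwp2: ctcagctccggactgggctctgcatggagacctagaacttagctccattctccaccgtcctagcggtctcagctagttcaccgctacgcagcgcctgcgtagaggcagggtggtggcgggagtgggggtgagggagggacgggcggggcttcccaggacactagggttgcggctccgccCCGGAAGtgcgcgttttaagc
Pdcd11: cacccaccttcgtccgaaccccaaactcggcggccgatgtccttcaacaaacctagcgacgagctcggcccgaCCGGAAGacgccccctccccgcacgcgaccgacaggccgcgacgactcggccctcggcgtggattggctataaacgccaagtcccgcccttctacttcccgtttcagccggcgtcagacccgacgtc
Nop2: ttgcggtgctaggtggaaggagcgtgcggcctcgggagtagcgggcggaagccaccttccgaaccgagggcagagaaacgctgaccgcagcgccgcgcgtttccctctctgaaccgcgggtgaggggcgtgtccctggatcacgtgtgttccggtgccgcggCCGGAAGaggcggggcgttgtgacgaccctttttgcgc

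The products of this assembly line and the translation machinery were lower as well. Of 36 measured genes for cytosolic ribosomal proteins 19 were called lower and 0 higher, with a median change of −0.98 (−0.65 after quantile normalization); 37 others lay on clusters shared with further genes and were not used. Without non-manipulated replicate 1 or 2 the called count was 0, at medians of −0.95 and −0.99. Rps15 fell to 11.79 and 12.14 in antibody pools, against 13.97 and 13.78 in non-manipulated embryos (−1.91 ± 0.20, adjusted p = 0.0043). Fau, which encodes a ribosomal protein fused to a ubiquitin-like protein, fell to 13.11 and 12.83 with antibody, against 15.11 and 15.04 in non-manipulated pools (−2.10 ± 0.25, adjusted p = 0.0062). Rps24 and Rps4x fell, with changes of −1.36 and −1.14 (adjusted p = 0.0064 and 0.0080). Near-identical processed copies of ribosomal protein genes exist, so each of these values may include signal of a copy. Of 35 translation factor genes 14 were called lower and 0 higher, with a median change of −1.16, and 2 were called lower without non-manipulated replicate 1 or 2. Eef2, the elongation factor that moves the ribosome along the RNA, fell to 11.53 and 11.63 in antibody pools, against 14.07 and 14.06 in non-manipulated embryos (−2.48 ± 0.20, adjusted p = 0.0021). Eif3a, a subunit of the largest initiation factor, fell to 10.66 and 10.56 with antibody, against 12.90 and 12.93 in non-manipulated pools (−2.31 ± 0.17, adjusted p = 0.0021). For both factors the antibody pools were nearly equal. Eif3b, which sits in the same complex, showed the opposite in this respect: its levels were 5.52 and 9.02 in antibody pools, against 11.43 and 11.60 in non-manipulated embryos (−4.24 ± 0.96, adjusted p = 0.039; 0.065 after quantile normalization). Eif2b4 and Eif3l fell, with changes of −2.37 and −2.14 (adjusted p = 0.0051 and 0.0059).

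**Figure D4:**
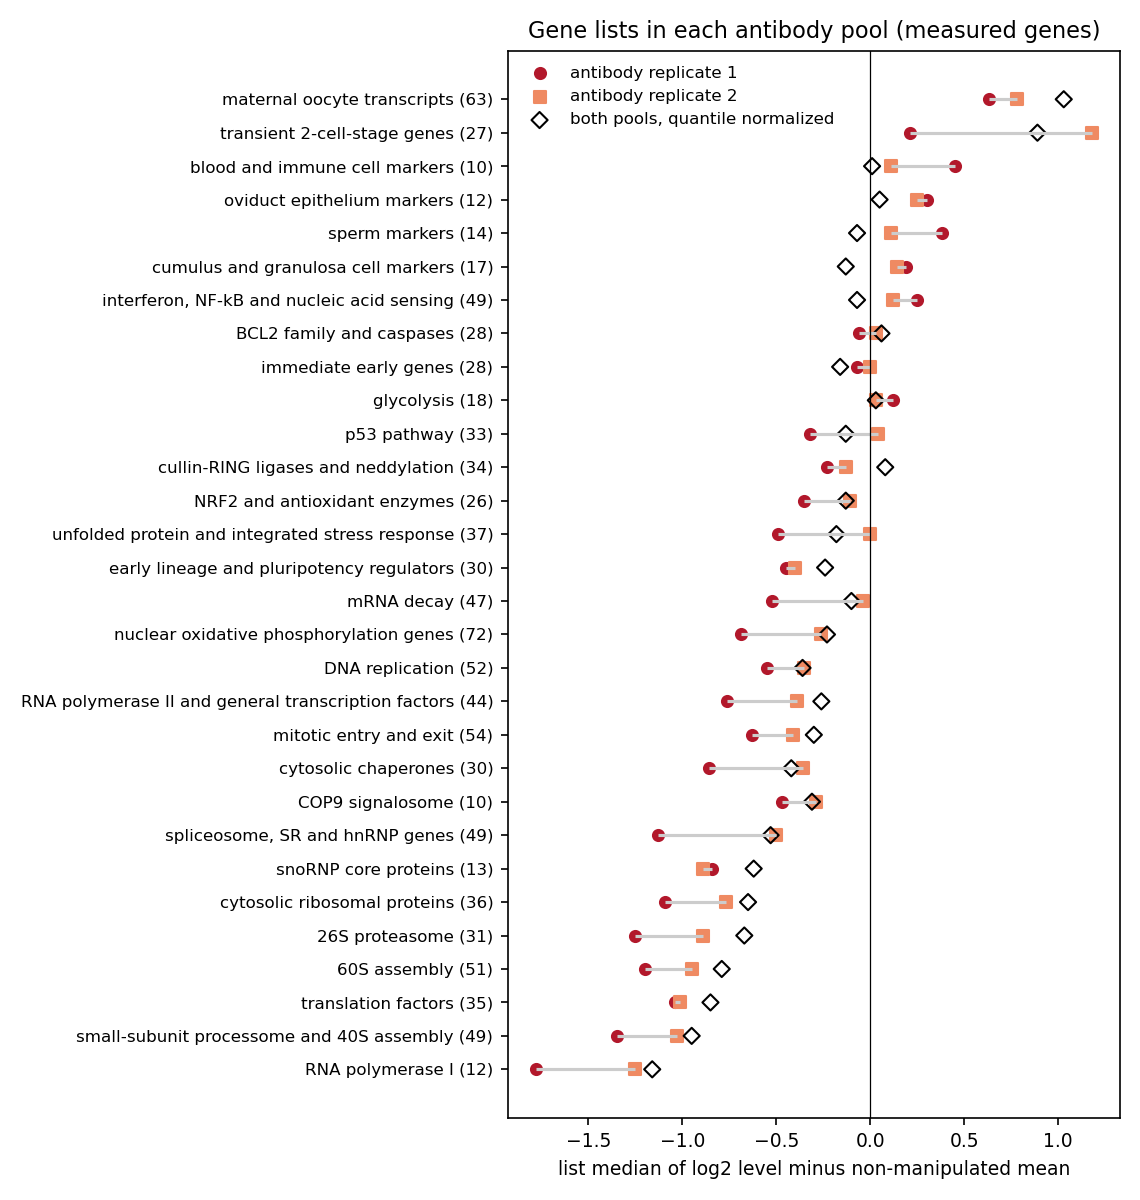
Median change of log2 level from the non-manipulated mean for 30 gene lists, in antibody replicate 1 (circles) and replicate 2 (squares), with the median of the fitted change after quantile normalization as diamonds and the number of measured genes in brackets. Of the 30 lists, RNA polymerase I and small-subunit assembly lie lowest in both pools; maternal transcripts lie highest in replicate 1, transient 2-cell genes lie highest in replicate 2, and the transient 2-cell list is spread furthest between the pools.

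Calls among transcription and RNA processing genes were mostly lower as well, as were those over all genes (7.29% lower and 2.76% higher). Median levels of the splicing and polymerase II lists were 9.89 and 10.15. At a mean log2 level of 8 to 10, 640 of 3308 genes were called lower, with a median change of −0.32. At 10 to 12 the count was 444 of 1896, with a median change of −0.38. Of 49 spliceosome, SR and hnRNP genes 16 were called lower and 0 higher (median −0.82), among them Prpf8, the central spliceosome protein, at 9.93 and 9.47 with antibody, against 11.86 and 11.92 in non-manipulated pools (−2.19 ± 0.20, adjusted p = 0.0030). Snrnp70 of the U1 particle, Hnrnpl and Srsf6 fell, with changes of −1.68, −1.40 and −1.58 (adjusted p between 0.0037 and 0.0057). Gemin5, which recognises small nuclear RNA for assembly, was at 5.92 and 9.01 in antibody pools, against 11.83 and 11.65 in non-manipulated embryos (−4.28 ± 0.85, adjusted p = 0.026). Splicing genes were lower in replicate 1 (median −1.13) than in replicate 2 (−0.50), and replicate 2 was over 2-fold above replicate 1 at 15 of the 49, with 0 the other way. The called lower count of splicing genes was 0 without non-manipulated replicate 1 or 2 and 38 without antibody replicate 2. For RNA polymerase II and general transcription factors 12 of 44 genes were called lower and 2 higher (median −0.57; −0.26 after quantile normalization), with 0 called without non-manipulated replicate 1 or 2. Supt5, a subunit of the elongation factor DSIF, fell to 9.18 and 10.43 with antibody, against 12.89 and 12.99 in non-manipulated pools (−3.14 ± 0.39, adjusted p = 0.0066). Ccnt1, the cyclin of the elongation kinase P-TEFb, fell to 8.92 and 9.22 in antibody pools, against 10.94 and 11.02 in non-manipulated embryos (−1.91 ± 0.18, adjusted p = 0.0031), and Ercc3, a helicase of TFIIH, fell by 1.86 (adjusted p = 0.0060). The initiation factor gene Gtf2b went against its list and rose to 12.01 and 11.78 with antibody, against 10.00 and 10.38 in non-manipulated pools (1.70 ± 0.22, adjusted p = 0.0074).

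Genes of cell division and DNA replication were lower too. Of 54 genes of mitotic entry and exit 19 were called lower and 1 higher, with a median change of −0.62 (−0.30 after quantile normalization). Only 2 were called lower and 0 higher without non-manipulated replicate 1 or 2. Cdc20, which switches on the anaphase-promoting complex, fell to 12.56 and 12.59 in antibody pools, against 15.11 and 14.99 in non-manipulated embryos (−2.48 ± 0.16, adjusted p = 0.0018). Plk1, the main mitotic polo-like kinase, fell to 12.74 and 12.21 with antibody, against 15.45 and 15.39 in non-manipulated pools (−2.94 ± 0.21, adjusted p = 0.0019). The groups did not overlap for either gene, as at every called gene. Incenp, a scaffold of the chromosomal passenger complex, and the spindle motor gene Kif11 fell, with changes of −2.41 and −2.77 (adjusted p = 0.0062 and 0.0070), in both cases with replicate 1 lower. Kif18b, another kinesin, was at 8.00 and 11.07 in antibody pools, against 13.42 and 13.40 in non-manipulated embryos (−3.88 ± 0.85, adjusted p = 0.036; 0.053 after quantile normalization). The single higher gene was Plk4, the kinase that starts centriole assembly, at 14.28 and 13.30 with antibody, against 11.95 and 11.86 in non-manipulated pools (1.88 ± 0.35, adjusted p = 0.021). Checkpoint and kinetochore genes could differ between pools more than between groups: Bub1 was at 7.98 and 10.58 in antibody pools, against 10.23 and 10.02 in non-manipulated embryos, and Nuf2 at 7.32 and 10.44 with antibody, against 9.68 and 9.63 in non-manipulated pools, neither of them called. Of 52 DNA replication genes 14 were called lower and 0 higher (median −0.50), and 1 was called lower without non-manipulated replicate 1 or 2. The median level of the replication list was 9.06. In the level bin from 8 to 10, 640 of 3308 genes were called lower, with a median change of −0.32. Gins3, a subunit of the replicative helicase, fell to 9.26 and 9.57 in antibody pools, against 12.35 and 12.21 in non-manipulated embryos (−2.86 ± 0.18, adjusted p = 0.0018). Top2a, a topoisomerase, fell to 8.90 and 9.78 with antibody, against 11.55 and 11.52 in non-manipulated pools (−2.19 ± 0.30, adjusted p = 0.0083). The thymidine kinase gene Tk1 and the clamp-loader gene Rfc4 fell, with changes of −1.54 and −1.52 (adjusted p = 0.0066 and 0.0046).

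Regulators of early lineages, which the embryo begins to transcribe at about this stage, had 10 of 30 genes called lower and 0 higher, beside 7.29% and 2.76% of all genes. Without non-manipulated replicate 1 or 2, 1 was called lower. The median change of −0.32 does not set the list apart from other genes near its median level of 8.07. It was −0.13 in the level bin from 6 to 8 and −0.32 in that from 8 to 10. In these bins 687 of 5986 and 640 of 3308 genes were called lower. Tead4, needed for the trophectoderm, stood at 7.71 and 8.14 in antibody pools, against 10.75 and 10.54 in non-manipulated pools (−2.72 ± 0.20, adjusted p = 0.0019). The nuclear receptor gene Nr5a2 was at 7.41 and 8.41 in antibody pools, against 10.92 and 10.87 in non-manipulated embryos (−2.98 ± 0.30, adjusted p = 0.0042). Rarg, a retinoic acid receptor, fell to 7.42 and 7.57 with antibody, against 9.27 and 9.13 in non-manipulated pools (−1.70 ± 0.19, adjusted p = 0.0054), and the homeobox gene Obox6 to 12.14 and 12.40 in antibody pools, against 13.63 and 13.64 in non-manipulated embryos (−1.36 ± 0.17, adjusted p = 0.0064). The other called members were Dppa2, Esrrb, Kdm5b, Sall4, Tfap2c and Utf1, with changes between −0.91 and −1.99. Pou5f1 was at 8.26 and 8.85 with antibody, against 8.48 and 8.53 in non-manipulated pools, so its groups overlapped, and Sox2 and Nanog stayed at or below 6.30 on all 4 arrays.

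Transcripts stored by the oocyte were higher. Of 63 maternal genes 22 were called higher and 0 lower, with a median change of 0.75 (1.03 after quantile normalization), beside 2.76% called higher and 7.29% called lower of all genes. Both antibody pools lay above both non-manipulated pools at 44 of the 63 and below them at 8, beside 39.6% and 21.5% of all genes. Without antibody replicate 1, 31 were called higher and 0 lower, and without antibody replicate 2, 32 were called higher and 6 lower. Without non-manipulated replicate 1 or 2, 0 were called, at medians of 0.76 and 0.74. Oosp2, an oocyte-secreted protein gene, rose to 13.47 and 13.85 in antibody pools, against 11.60 and 11.64 in non-manipulated embryos (2.04 ± 0.19, adjusted p = 0.0030), and its relative Oosp3 to 17.47 and 17.42 with antibody, against 15.48 and 15.52 in non-manipulated pools (1.94 ± 0.18, adjusted p = 0.0031). Nlrp9a, of an oocyte-expressed NLR family, rose to 11.03 and 11.39 in antibody pools, against 9.01 and 8.87 in non-manipulated embryos (2.27 ± 0.21, adjusted p = 0.0031), though its paralogues are similar enough for probes to share signal. These genes were alike in both antibody pools. The oocyte growth factor gene Bmp15 was at 18.60 and 18.48 with antibody, against 16.99 and 17.02 in non-manipulated pools (1.54 ± 0.29, adjusted p = 0.023), and Gdf9 at 9.08 and 9.01 in antibody pools, against 8.24 and 8.17 in non-manipulated embryos (0.84 ± 0.14, adjusted p = 0.015). Tcl1b2 and the zona pellucida gene Zp2 rose by 1.5 and by 0.94 (adjusted p = 0.0036 and 0.029), Oosp1 rose by 1.18 (adjusted p = 0.023), and Bcl2l10, a BCL2 relative of the oocyte, rose by 0.74 (adjusted p = 0.039). Zp2 and Bcl2l10 did not pass after median centring (adjusted p = 0.056 and 0.096). The pools injected with Trim21 mRNA without antibody did not show these higher levels: Bmp15 was at 15.79 and 15.31 there, and Nlrp9a at 8.33 and 8.01. At 9 maternal genes replicate 2 was over 2-fold above replicate 1, with 1 the other way; Nlrp14 was at 12.77 and 14.50 with antibody, against 12.32 and 12.39 in non-manipulated pools, and Zar1 at 13.31 and 14.70 in antibody pools, against 12.32 and 12.18 in non-manipulated embryos (1.76 ± 0.47, adjusted p = 0.063). Zp3 was at 11.53 and 12.87 with antibody, against 13.27 and 13.19 in non-manipulated pools (adjusted p = 0.16), so not every member was higher.

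Genes of the mRNA decay machinery, which clears maternal RNA, had 4 called higher and 7 called lower of 47 (median −0.36; −0.10 after quantile normalization). Of all genes 2.76% were called higher and 7.29% lower. The level bin from 8 to 10, which holds the list's median level of 9.07, had 175 called higher and 640 lower of 3308. Its median change was −0.32, so the list was not far from genes of like level. Members of the decay list were called on both sides. The counts were 0 without non-manipulated replicate 1, and 1 lower without non-manipulated replicate 2. Subunits of the CCR4-NOT deadenylase were among the higher ones: Cnot4 at 11.51 and 11.69 in antibody pools, against 10.15 and 10.15 in non-manipulated embryos (1.45 ± 0.18, adjusted p = 0.0068), Cnot7 at 13.92 and 13.83 with antibody, against 12.72 and 12.75 in non-manipulated pools (1.14 ± 0.24, adjusted p = 0.031), and Cnot6l (0.98 ± 0.21, adjusted p = 0.035). Cnot10 of the same complex was called lower (−0.96 ± 0.15, adjusted p = 0.012). Nuclease and exosome genes were among the lower ones: Dis3 at 10.19 and 10.75 in antibody pools, against 12.34 and 12.07 in non-manipulated embryos (−1.74 ± 0.22, adjusted p = 0.0067), Exosc10 at 11.82 and 11.89 with antibody, against 13.16 and 13.14 in non-manipulated pools (−1.30 ± 0.14, adjusted p = 0.0050), and Exosc5 (−1.70 ± 0.27, adjusted p = 0.013). Upf1, the helicase of nonsense-mediated decay, fell to 8.32 and 8.78 in antibody pools, against 10.73 and 10.82 in non-manipulated embryos (−2.22 ± 0.20, adjusted p = 0.0029).

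Among the short-lived 2-cell genes the antibody pools stood apart. Of 27 measured members 5 were called higher and 1 lower, with a median change of 0.60 (0.89 after quantile normalization), but the median was 0.21 in replicate 1 and 1.18 in replicate 2. Replicate 2 was over 2-fold above replicate 1 at 10 of the 27 and replicate 1 above replicate 2 at 0, beside 8.12% and 6.92% of all genes; after quantile normalization these counts were 6 and 1. A difference between single pools has no test here. Without antibody replicate 1, 16 were called higher and 0 lower, without antibody replicate 2, 8 were called higher and 5 lower, and 1 was called higher and 0 lower when non-manipulated replicate 1 or 2 was left out. Pramel16, of an oocyte and early-embryo gene family, rose to 11.45 and 11.91 with antibody, against 9.31 and 9.05 in non-manipulated pools (2.50 ± 0.22, adjusted p = 0.0029). Usp17lb, a deubiquitinase gene of a tandem family, rose to 13.88 and 13.48 in antibody pools, against 11.47 and 11.72 in non-manipulated embryos (2.08 ± 0.32, adjusted p = 0.012), and the BTB-domain gene Tdpoz3 to 13.28 and 12.69 with antibody, against 10.69 and 10.83 in non-manipulated pools (2.22 ± 0.29, adjusted p = 0.0074). For these genes both pools were high. The zinc finger gene Zfp352 was higher in replicate 2, at 8.55 and 9.45 in antibody pools, against 7.57 and 7.26 in non-manipulated embryos (1.58 ± 0.29, adjusted p = 0.021). Zscan4d, a marker of the 2-cell stage, was at 9.87 and 10.38 with antibody, against 9.05 and 8.97 in non-manipulated pools (1.12 ± 0.22, adjusted p = 0.027; 0.061 after median centring). Its paralogue Zscan4c showed the pools at different places: replicate 1 at 9.45 was near the non-manipulated 9.35 and 9.01, and replicate 2 was at 10.56 (adjusted p = 0.18). Usp17le did so more strongly, at 8.67 and 11.18 in antibody pools, against 9.91 and 9.55 in non-manipulated embryos. Its replicate 1 was thus below and its replicate 2 above both non-manipulated pools. Usp17la showed the same form, at 6.86 and 8.98 with antibody, against 7.91 and 7.7 in non-manipulated pools. Usp17lb, given above, did not, with both antibody pools high and replicate 1 the higher. Zscan4, Usp17l and Tdpoz genes are near-identical copies and probes may share their signal, so values of single members are uncertain. The 1 called lower member was Sp110, at 14.75 and 14.98 with antibody, against 15.60 and 15.47 in non-manipulated pools (−0.67 ± 0.16, adjusted p = 0.046).

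The promoters of 2 members are shown because 8 of the 17 genes of this list with a promoter sequence (47.1%) held the TATA-box letters TATAAA on either strand within 250 bases of the start, against 79 of 545 called higher genes (14.5%), 102 of 1405 called lower genes (7.26%) and 2431 of all 18265 (13.3%). The copies in a family share their promoter sequence and are not independent, and the median number of CG dinucleotides was 1 in this list. The letters TATAAA are in capitals in the 200 bases before the start, 5′ to 3′ on the strand of the gene, in RefSeq sequences of GRCm38.p6. Usp17lb lies at chr7:104842584-104842783 and Zscan4d at chr7:11166149-11166348, both on the minus strand.
Usp17lb: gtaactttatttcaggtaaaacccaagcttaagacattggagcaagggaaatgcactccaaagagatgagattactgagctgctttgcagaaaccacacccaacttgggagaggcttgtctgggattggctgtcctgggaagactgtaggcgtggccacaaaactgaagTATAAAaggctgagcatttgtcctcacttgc
Zscan4d: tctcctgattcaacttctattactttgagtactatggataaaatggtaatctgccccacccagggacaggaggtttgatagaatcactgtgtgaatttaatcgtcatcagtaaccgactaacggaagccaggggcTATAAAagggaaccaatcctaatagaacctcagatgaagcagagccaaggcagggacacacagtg

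**Figure D5:**
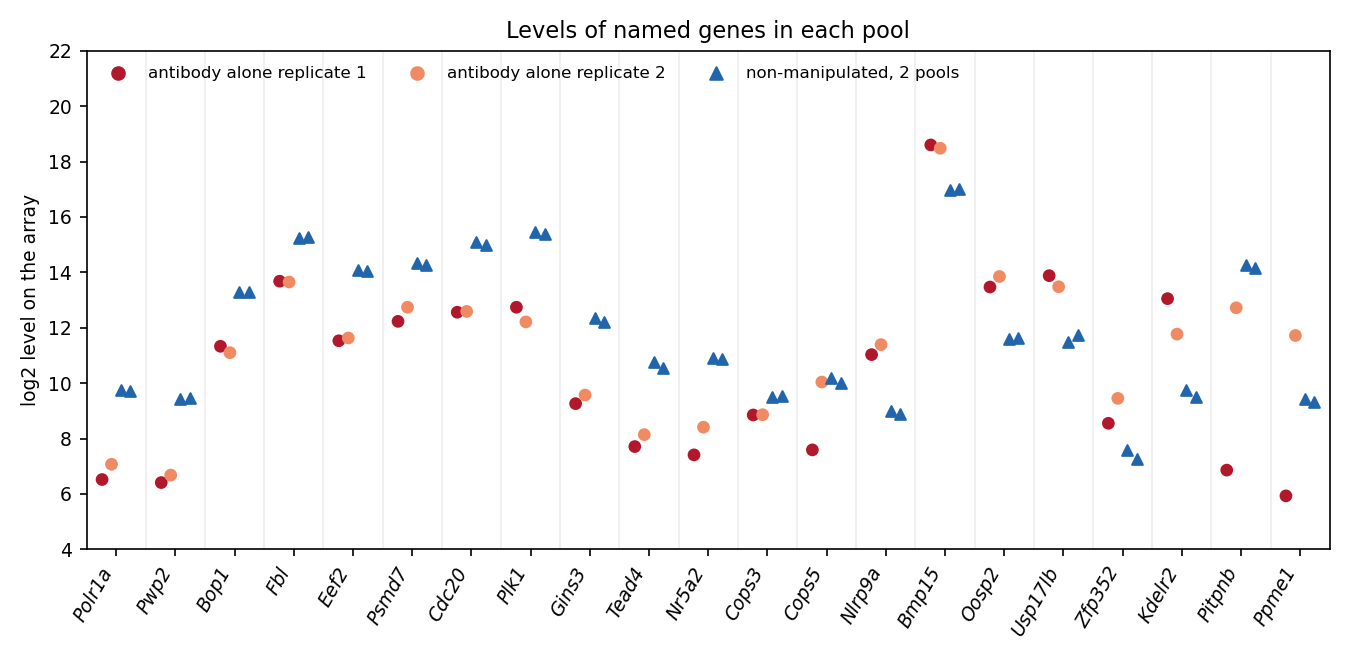
Log2 levels of named genes on the 4 arrays, with the antibody pools (circles, replicate 1 then replicate 2) left of the non-manipulated pools (triangles). Ribosome, translation and cell division genes lie below both triangles in both antibody pools, maternal genes such as Bmp15 lie above, and Cops5, Pitpnb and Ppme1 differ between the antibody pools.

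The 12 largest rises among called genes were taken with predicted genes, small RNAs and large receptor families set aside. Mup3, a major urinary protein gene, was at 9.17 and 7.95 in antibody pools, against 5.16 and 5.24 in non-manipulated embryos, a 10.3-fold difference (3.36 ± 0.36, adjusted p = 0.0048). Mup21 of the same family, whose copies are hard to tell apart by probe, was at 7.74 and 7.19 with antibody, against 4.71 and 5.10 in non-manipulated pools (2.56 ± 0.23, adjusted p = 0.0030). Cyp11a1, the enzyme that starts steroid synthesis from cholesterol, was at 9.93 and 9.05 in antibody pools, against 6.38 and 6.32 in non-manipulated embryos (3.14 ± 0.28, adjusted p = 0.0030). Steroid-producing follicle cells also use Cyp11a1. Of 17 cumulus and granulosa markers, both antibody pools were above both non-manipulated pools at 7 and below them at 2 (39.6% and 21.5% over all genes), with a median change of 0.17 (−0.13 after quantile normalization). The log2 of their summed linear levels was 10.91 and 11.46 in antibody pools, against 12.30 and 12.80 in non-manipulated pools. The brightest members dominate such a sum. The member called lower, Amhr2, was at 10.27 and 9.62 with antibody, against 12.02 and 11.99 in non-manipulated pools. The part of such cells in the level of Cyp11a1 was not tested. Kdelr2, a receptor that returns proteins to the endoplasmic reticulum, was at 13.05 and 11.77 with antibody, against 9.77 and 9.49 in non-manipulated pools (2.78 ± 0.43, adjusted p = 0.012). Psenen, a subunit of gamma-secretase, was at 14.63 and 15.31 in antibody pools, against 12.41 and 12.74 in non-manipulated embryos (2.40 ± 0.26, adjusted p = 0.0052). Ifitm3, an interferon-induced membrane protein gene, was at 9.76 and 9.45 with antibody, against 7.27 and 6.94 in non-manipulated pools (2.50 ± 0.20, adjusted p = 0.0021). All 12 were chosen with both antibody pools above both non-manipulated pools, as at every called higher gene. The other largest rises were Magea10 (2.87 ± 0.31), the lysosomal membrane protein gene Stard3nl (2.64 ± 0.28), the peptide hormone gene Adm2 (2.52 ± 0.46), the actin-bundling gene Pls1 (2.51 ± 0.35) and the retinol dehydrogenase gene Rdh11 (2.40 ± 0.54), with Pramel16 as given above. Adjusted p for these 5 lay between 0.0046 and 0.039, and Rdh11, at 10.01 and 8.18 in antibody pools, against 6.76 and 6.64 in non-manipulated embryos, did not pass after quantile normalization (adjusted p = 0.061).

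The 12 largest falls were deeper and mostly unequal between the antibody pools. Slc39a4, a zinc importer, had the largest, at 7.68 and 10.19 with antibody, against 13.57 and 13.44 in non-manipulated pools, or 0.042 of the non-manipulated level (−4.57 ± 0.70, adjusted p = 0.012). Slc5a6, a vitamin transporter, was at 7.76 and 9.84 in antibody pools, against 12.49 and 12.46 in non-manipulated embryos (−3.68 ± 0.59, adjusted p = 0.014). Tbc1d9, Kansl3 of the NSL chromatin complex and the zinc finger gene Zfp239 had changes of −3.72 ± 0.54, −3.64 ± 0.58 and −3.58 ± 0.73, with adjusted p between 0.010 and 0.028. Replicate 1 was the lower pool for each of them. Wdr81, which acts in endosome traffic, was one of the few with nearly equal pools, at 6.28 and 6.62 with antibody, against 10.01 and 9.87 in non-manipulated pools (−3.49 ± 0.23, adjusted p = 0.0018). Npl, a lyase of sialic acid breakdown, was at 10.67 and 11.86 in antibody pools, against 14.90 and 14.61 in non-manipulated embryos (−3.49 ± 0.36, adjusted p = 0.0043). Gemin5, Eif3b, Ddx54, Kif18b and Mybbp1a, described above, complete the 12.

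The genes at which the antibody pools were furthest apart were not called, and such a gap itself raises the standard error. They are given as a description. Pitpnb, a phosphatidylinositol transfer protein gene, was at 6.86 in replicate 1 and 12.72 in replicate 2, against 14.25 and 14.16 in non-manipulated embryos. Sar1a, the GTPase that starts COPII vesicles, was at 7.81 and 12.69 with antibody, against 13.24 and 12.96 in non-manipulated pools, and the stress-protein gene Sesn3 at 4.72 and 10.00 in antibody pools, against 10.01 and 10.52 in non-manipulated embryos. In Sar1a, Sesn3 and Dennd11 (6.51 and 11.40 with antibody, against 11.23 and 11.24 in non-manipulated pools) only replicate 1 stood well away from the non-manipulated pools. Fam110c was at 5.59 and 10.47 in antibody pools, against 9.58 and 9.81 in non-manipulated embryos. In the other direction Il20, a cytokine gene, was at 11.21 and 6.14 with antibody, against 6.38 and 6.68 in non-manipulated pools, the cyclophilin gene Ppic at 10.32 and 6.38 in antibody pools, against 6.60 and 6.92 in non-manipulated embryos, and the small GTPase gene Rras at 11.37 and 7.44 with antibody, against 7.58 and 7.71 in non-manipulated pools. Here too replicate 1 was the pool that stood away. Tubal3, an alpha-tubulin gene, was at 12.39 and 8.59 in antibody pools, against 7.58 and 7.68 in non-manipulated embryos, and Fig4, a phosphoinositide phosphatase, at 10.89 and 6.60 with antibody, against 10.03 and 10.03 in non-manipulated pools, with replicate 2 the low pool.

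Some genes moved in opposite directions in the antibody pools. Among 17243 named genes outside the classes set aside, 43 had replicate 2 over 2-fold above and replicate 1 over 2-fold below both non-manipulated pools, and 4 had the reverse. Ppme1, which reverses methylation of protein phosphatase PP2A, was at 5.93 and 11.72 in antibody pools, against 9.43 and 9.33 in non-manipulated embryos. Rnase6, Zfp566 and Defb48 showed the same form, for instance Rnase6 at 5.52 and 9.22 with antibody, against 7.12 and 7.27 in non-manipulated pools. Zfp566 was at 6.81 and 10.56 in antibody pools, against 8.42 and 8.59 in non-manipulated embryos, and Defb48 at 5.23 and 9.18 with antibody, against 7.42 and 7.47 in non-manipulated pools. Cul2, the scaffold of a cullin-RING ligase and thus a NEDD8 carrier, was the other way round, at 11.61 and 8.03 in antibody pools, against 9.22 and 9.27 in non-manipulated embryos. Cdca7 (9.25 and 6.84 with antibody, against 7.98 and 7.90 in non-manipulated pools), Mcts1 (8.11 and 5.38 in antibody pools, against 7.08 and 6.79 in non-manipulated embryos) and Fkbp2 (11.02 and 8.48 with antibody, against 9.5 and 9.60 in non-manipulated pools) were the remaining 3. The mean change of such genes is near 0 and hides both pools: it was −0.56 ± 1.59 for Ppme1 (adjusted p = 0.82) and 0.58 ± 0.98 for Cul2 (adjusted p = 0.70).

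Genes that respond to stress did not move as blocks. Of 26 genes of the NRF2 response and antioxidant enzymes 6 were called higher and 4 lower, beside 2.76% and 7.29% of all genes. Here and in the lists of the unfolded protein response, p53 and BCL2 relatives, 0 genes were called without non-manipulated replicate 1 or 2. The rises included the thioredoxin gene Txn1, at 10.31 and 9.89 in antibody pools, against 8.49 and 8.68 in non-manipulated embryos (1.52 ± 0.19, adjusted p = 0.0067), and the NRF2 target Nqo1, at 7.03 and 6.90 with antibody, against 5.67 and 5.74 in non-manipulated pools (1.26 ± 0.18, adjusted p = 0.0090). Bach1, a repressor of that response, fell to 10.69 and 10.33 in antibody pools, against 12.03 and 11.94 in non-manipulated embryos (−1.48 ± 0.21, adjusted p = 0.0094), and so did Taldo1 of the pentose phosphate pathway (−1.56 ± 0.18, adjusted p = 0.0054). Hmox1, another target, was at 5.37 and 5.53 with antibody, against 5.17 and 5.26 in non-manipulated pools (adjusted p = 0.32). The unfolded protein and integrated stress response had 37 measured genes, of which 3 were called higher and 5 lower: the cystine transporter gene Slc7a11 (1.14 ± 0.19, adjusted p = 0.014) and the folate enzyme gene Mthfd2 (1.44 ± 0.22, adjusted p = 0.012) rose, while Phgdh, of serine synthesis, was at 8.98 and 7.74 in antibody pools, against 10.78 and 10.55 in non-manipulated embryos (−2.31 ± 0.39, adjusted p = 0.017; 0.058 after quantile normalization). Sesn2, which the p53 list also holds, fell to 10.79 and 11.31 with antibody, against 13.05 and 13.12 in non-manipulated pools (−2.04 ± 0.20, adjusted p = 0.0035).

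Of 33 p53 pathway genes 1 was called higher and 3 lower (median −0.08), shares near the 2.76% and 7.29% of all genes. The higher one was the cyclin gene Ccng1, at 10.41 and 9.90 in antibody pools, against 8.14 and 8.18 in non-manipulated embryos (2.00 ± 0.24, adjusted p = 0.0062), and the lower ones were Sesn2, Pidd1 (−1.34 ± 0.16) and Gadd45a (−1.10 ± 0.18). In the BCL2 and caspase list, also near those shares, 1 of 28 was called higher, Bcl2l10, and 2 lower, Bid (−1.12 ± 0.17, adjusted p = 0.011) and Mcl1 (−1.01 ± 0.19, adjusted p = 0.023; 0.061 after quantile normalization). Cytosolic chaperones had 2 called higher and 9 lower of 30 (median −0.64; 1 lower without non-manipulated replicate 1 or 2), with the kinase co-chaperone gene Cdc37 at 6.53 and 6.94 with antibody, against 9.39 and 9.40 in non-manipulated pools (−2.66 ± 0.19, adjusted p = 0.0018). Stip1, Hsph1 and Cct5 fell, with changes of −1.64, −1.68 and −1.48 (adjusted p between 0.0083 and 0.011).

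For interferon, NF-kB and nucleic acid sensing, which can respond to injected nucleic acid or to damage, 0 of 49 genes were called higher and 5 lower in limma's fit, beside 2.76% and 7.29% of all genes. Without non-manipulated replicate 1 or 2, 0 were called, and without antibody replicate 2, 11 were called higher and 12 lower. The median change was 0.15, but it was −0.07 after quantile normalization. Sting1, an adaptor of DNA sensing, fell to 4.66 and 4.89 in antibody pools, against 6.49 and 6.51 in non-manipulated embryos (−1.72 ± 0.19, adjusted p = 0.0054). Mavs and Irf3 of RNA sensing fell, with changes of −1.63 and −1.05 (adjusted p = 0.019 and 0.039). Stat2 fell to 8.96 and 7.71 with antibody, against 10.48 and 10.36 in non-manipulated pools (−2.08 ± 0.38, adjusted p = 0.020). Irf3 and Stat2 did not pass after quantile normalization (adjusted p = 0.083 and 0.067). Among 28 immediate early genes 1 was called higher, the phosphatase gene Dusp1 at 9.72 and 9.85 in antibody pools, against 8.95 and 8.89 in non-manipulated embryos (0.86 ± 0.20, adjusted p = 0.040; 0.095 after median centring), and 1 lower, Myc at 5.57 and 5.95 with antibody, against 6.72 and 6.81 in non-manipulated pools (−1.0 ± 0.20, adjusted p = 0.027; 0.053 after quantile normalization). The list's median of 0.05 was −0.16 after quantile normalization.

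Of 72 nuclear genes of oxidative phosphorylation 10 were called lower and 2 higher (median −0.50; −0.23 after quantile normalization), beside 7.29% and 2.76% of all genes. Calls also varied with level, and the median level of this list was 8.09. The bin from 6 to 8 held 687 called lower of 5986, with a median change of −0.13. The bin from 8 to 10 held 640 of 3308, with a median change of −0.32. The count of this list is thus not set apart from such genes. The complex I gene Ndufv1 fell to 6.83 and 6.81 in antibody pools, against 8.01 and 7.97 in non-manipulated embryos (−1.17 ± 0.15, adjusted p = 0.0068). Ndufa4, a small subunit of the respiratory chain, rose to 11.23 and 11.83 with antibody, against 9.85 and 10.10 in non-manipulated pools (1.56 ± 0.23, adjusted p = 0.010). Atp5k of ATP synthase and Cyc1 of complex III had changes of −1.5 and −0.96 (adjusted p = 0.011 and 0.014), the second with an adjusted p = 0.092 after quantile normalization. Replicate 2 was over 2-fold above replicate 1 at 16 of the 72, with 0 the other way (14 and 1 after quantile normalization); the widest was Ndufa9, at 6.79 and 10.89 in antibody pools, against 10.94 and 10.87 in non-manipulated embryos. Without non-manipulated replicate 1 or 2, 0 of the 72 were called, and without antibody replicate 2, 41 were called lower and 4 higher. Of 18 glycolysis genes 0 were called in limma's fit, beside 10.0% of all genes, with a median change of −0.03. Pgam1 was at 9.11 and 10.81 with antibody, against 11.53 and 11.68 in non-manipulated pools (adjusted p = 0.084), while Ldhb was at 13.38 and 13.66 in antibody pools, against 12.91 and 12.87 in non-manipulated embryos (0.63 ± 0.17, adjusted p = 0.068; 0.011 after quantile normalization).

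Marker lists were checked for stage and for other cells, beside 2.76% called higher and 7.29% called lower of all genes. Of 8 markers of the late 2-cell stage 2 were called higher and 1 lower, and the median level of the list was 10.99 and 11.26 in antibody pools, against 10.44 and 10.00 in non-manipulated pools. The log2 of their summed linear levels was 14.69 and 14.94 with antibody, against 14.90 and 14.88 in non-manipulated pools, and overlapped between groups. Of 11 oocyte markers, which the maternal list also holds, 4 were called higher and 0 lower. Defining markers of the 2-cell stage were thus present on all 4 arrays. Cumulus and granulosa markers were called higher for 1 of 17 (Star, 0.66 ± 0.14, adjusted p = 0.030) and lower for 1 (Amhr2, −2.06 ± 0.37, adjusted p = 0.020), and neither passed after quantile normalization (adjusted p = 0.20 and 0.085). Inha, a granulosa marker, was at 5.90 and 7.67 with antibody, against 6.30 and 10.32 in non-manipulated pools, so non-manipulated replicate 2 held the most of it. Of 14 sperm markers 0 were called in limma's fit. The log2 of their summed linear levels was 8.99 and 8.90 in antibody pools, against 8.93 and 8.88 in non-manipulated embryos. Oviduct epithelium markers had 1 of 12 called higher, Cdh1, which embryos also express (1.26 ± 0.27, adjusted p = 0.034). For this list the log2 of the sum was 12.76 and 12.14 with antibody, against 11.82 and 11.80 in non-manipulated pools. Krt18 was at 8.17 in replicate 1 and 5.78 in replicate 2, against 5.27 and 5.39 in non-manipulated pools (adjusted p = 0.17). Blood and immune markers had 0 of 10 called in limma's fit, with every member under a level of 6 on all 4 arrays. For these the log2 of the sum was 8.32 and 8.16 in antibody pools, against 8.06 and 8.03 in non-manipulated embryos. Median levels of the cumulus, sperm, oviduct and blood lists were 4.84, 4.59, 5.41 and 4.66. The level bin from 4 to 6 had 224 called higher and 110 lower of 16716. Few calls are found at such levels, so the counts of 0 in the sperm and blood lists tell little about other cells. The part of other cells in the changes above was not tested.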

How the data were processed

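RNA of pools of 100 late 2-cell embryos was hybridised to Affymetrix arrays after GeneChip WT Pico labelling, per the labels' protocols, and summarised with Affymetrix Expression Console, per the submitters' processing notes, which give no version. The authors deposited log2 values per transcript cluster. The deposited column of non-manipulated replicate 1 was treated as a score, since 1 cell holds a whole number far outside the log2 range; that cluster was dropped and the rest of the column used as log2. Of 65955 clusters kept, 31257 named 1 gene, 1492 several and 33206 none in the array's annotation, and 1199 symbols were updated. Where a gene had several clusters (441 genes), the brightest by mean of the 8 arrays stood for it, leaving 30701 genes. The array design's build is not given in the sources used here. No low-level filter or further normalization was applied.

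A linear model of 4 group means was fitted with limma 3.58.1 under R 4.3.3 (lmFit, then eBayes; two-sided tests), with 4 residual and 6.83 total degrees of freedom and a median standard error of 0.22. The steps were tested on simulated data. The replicate number was no block in it: deviations of same-numbered antibody and non-manipulated pools correlated at −0.023 across genes. Named genes were the 12 largest called changes in each direction with groups that do not overlap, all COP9 subunits and Trim21, up to 4 called members per list by p (2 where none was called), and the genes with the most unequal antibody pools (6 per direction apart, 4 per direction on opposite sides). Other names were added after their values were seen. The 32 lists, the comparison and the rule were chosen with earlier results of these data known, and no list was tested as a set. Alternatives were 3 scalings, a level filter, the mean of clusters, all clusters, a trended robust prior, a spread per group, a 2-fold threshold, only the groups compared, a replicate block, each array left out, and, added after seeing the data, genes at an array's ceiling left out.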

Additional observations from a re-analysis of the deposited data

How the results depend on the processing

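The count of 3083 called genes (846 higher, 2237 lower, 27.4% higher) was within 1.5 times under quantile normalization (2481, 45.0% higher), median centring (3104, 18.4% higher), cyclic loess (2954, 44.2% higher), a mean log2 level of at least 6 (3400), the mean of a gene's clusters (3067), all transcript clusters (3200), a trended robust prior (2618) and genes at an array's ceiling left out (3083). With the replicate number as a block, which the labels do not show to pair these samples, 2320 genes were called. It was 0 with only the 4 arrays compared (5814 at an unadjusted p under 0.05), 97 with an added 2-fold threshold and 1177 with a spread for each group. Leaving out 1 array in turn gave 94 to 13791 genes: the lowest without non-manipulated replicate 1, 156 without non-manipulated replicate 2, 1360 without replicate 1 or replicate 2 of Trim21 mRNA, 2550 without replicate 1 or replicate 2 of Trim21 mRNA plus antibody, 5324 without antibody replicate 1 and the highest without antibody replicate 2. The fits that leave out a pool treat the lone pool as varying like the other groups, since only groups with 2 pools set the spread. Without an antibody pool the group with the most unequal pools no longer enters it. Without a non-manipulated pool the group with the least unequal pools no longer does. Calls kept without an antibody pool are therefore no check on those calls. The size of this part in the shifts was not tested. Of the 846 higher and 2237 lower genes, 790 and 2113 were called the same way with each antibody pool left out in turn. Of 123 called named genes none changed direction under an alternative that tests single genes; 107 kept the call after quantile normalization, 113 after cyclic loess, 117 after median centring, 119 with the replicate block, 96 with a spread for each group, and 18 and 22 without non-manipulated replicate 1 or 2. The 4615 genes with antibody pools over 2-fold apart were 4307, 4537 and 3966 under quantile normalization, median centring and cyclic loess.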

Other observations

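Small nucleolar and Cajal body RNAs, many of which guide modification of ribosomal RNA, are on the array. Their values were looked at after those of the protein genes. Of 68 such RNAs 15 were called lower and 2 higher, beside 7.29% and 2.76% of all genes, with a median change of −0.46. The share called higher was near that of all genes. Snord70 was at 5.97 and 6.18 in antibody pools, against 10.47 and 9.97 in non-manipulated pools, and Snord42a at 11.27 and 11.22 with antibody, against 14.55 and 14.30 in non-manipulated pools. Several members differed between the antibody pools, among them Snord92, at 4.01 and 8.18 in antibody pools, against 12.69 and 12.42 in non-manipulated embryos. The 2 higher ones were Snord118, at 9.39 and 9.04 with antibody, against 7.04 and 6.67 in non-manipulated pools, and Snord82, at 8.96 and 9.13 in antibody pools, against 6.67 and 6.55 in non-manipulated embryos. Many of these RNAs lie in introns of host genes, and the array need not separate the RNA from its host's intron.

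Classes of genes with low array levels had positive medians. Of 1229 olfactory receptor genes 29 were called higher and 0 lower (median 0.44), of 493 vomeronasal receptor genes 8 and 0 (median 0.44), and of 921 microRNA genes 37 and 4 (median 0.37), beside 2.76% called higher and 7.29% called lower of all genes, whose median change was 0.18. The shares called higher were close to or below that of all genes for both receptor classes. The 16716 genes whose mean log2 level lay from 4 to 6 changed by a median of 0.27, and 224 of them were called higher and 110 lower. The part of the level-dependent difference between arrays in these counts was not tested.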
